A study of Homo sapiens with 8 samples.

Results

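NELFB, the B subunit of the negative elongation factor, was silenced in HAP1 cells, and the RNA of these cells was compared with that of control cells across all genes. The comparison took the 2 libraries whose labels name NELFB and the 3 control libraries, labelled pLB187, 5 of the 8 libraries of the series. The other 3 libraries, in which NELFE was silenced, stood outside the contrast. They entered the filter on low counts, the normalization, the estimate of the spread and the tests of whether a gene differed between the knockdowns. HAP1 is a near-haploid human line that was derived from a leukaemia line and grows attached. All 8 libraries came from 1 clone, SC9, which carries dCas9-KRAB, an inactive Cas9 joined to a repressor domain that silences the promoter to which a guide RNA leads it. The NELFB cells received a lentivirus with 1 guide RNA against NELFB, and the control cells received the same vector with a guide RNA against ADAM22. Puromycin selection began 48 h after transduction, and polyadenylated RNA was taken 144 h after transduction in every group and read as single-end reads of 65 bases. With 1 guide RNA for NELFB, effects of the loss of NELFB and of other sites bound by the guide RNA cannot be told apart in these libraries. Nor can effects of the control guide RNA at other sites, where silencing in the controls would read as an increase in the NELFB libraries. No other clone was measured.

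NELF is a complex of 4 subunits, NELFA, NELFB, NELFCD and NELFE, that binds RNA polymerase II shortly after it has started on a gene and, with DSIF, holds it paused. Release follows when the kinase P-TEFb phosphorylates NELF, DSIF and the polymerase. NELF is best known for its part in genes that respond quickly to signals, such as the immediate early genes, and in the correct ending of the replication-dependent histone mRNAs, whose normal end is a stem-loop and not a poly(A) tail.

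The guide RNA is shown because its sequence chose the site that was silenced and because partial copies of it recur near other genes. In the guide RNA the 19 bases after an added first g match the plus strand of GRCh38 exactly at chr9:137255369-137255387, next to the PAM GGG, and no other site with a PAM matched in full. This site began 42 bases downstream of the start of the canonical NELFB transcript, within its coding sequence. The sequences are written 5′ to 3′, and in the sites below the capitals mark the unbroken run of bases, counted from the PAM side, that equals the guide RNA.
NELFB guide RNA: ggccgagctggagggcgccg
NELFB, chr9:137255369-137255387, plus strand: GCCGAGCTGGAGGGCGCCG
HMX3, chr10:123136273-123136291, plus strand: ggggccCTGGAGGGCGCCG
MID1IP1-AS1, chrX:38804058-38804076, minus strand: gggctgagGGAGGGCGCCG
MAPK6, chr15:52019417-52019435, plus strand: gcggctcgGGAGGGCGCCG
TRIM13, chr13:49997324-49997342, plus strand: cggcctgcGGAGGGCGCCG
PPFIA2, chr12:81758551-81758569, minus strand: acgttccgGGAGGGCGCCG
CCT5, chr5:10250778-10250796, plus strand: ctccagtgGGAGGGCGCCG
YY1, chr14:100240421-100240439, plus strand: cggccGCTGGAGGGCGCCG
WDR46, chr6:33287695-33287713, minus strand: tggctttTGGAGGGCGCCG

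Each library held between 22037423 and 24444185 counts on genes. The controls held 24444185, 23119332 and 23913330 counts, and the NELFB libraries held 23843603 and 23087766. Values per library are given in CPM, the counts of a gene divided by the TMM-scaled size of its library. Control replicate 1 stood apart from the other 2 controls: the mean chi-square per gene was 17.1 against replicate 2 and 29.4 against replicate 3, but 5.76 between replicates 2 and 3. On this measure NELFE replicate 3 also stood apart in its group, at 21.1 and 21.4 against replicates 1 and 2, which differed by 4.25. The NELFB libraries differed from each other by 5.99, and no pair of libraries was a copy. Of 18 haematopoietic markers, 8 had 3 reads or fewer in all 8 libraries, among them PTPRC (CD45), SPI1 and MPO, whereas the blood stem cell factors TAL1 and GATA2 were present at 59.0 and 47.2 CPM in the controls. The 18 markers summed to 134.9, 132.8 and 133.6 CPM in the controls and to 138.9 and 135.1 CPM in the NELFB libraries.

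NELFB itself fell strongly. Its level was 74.4, 72.7 and 79.1 CPM in the controls and 3.07 and 2.78 CPM in the NELFB libraries, a fold change of 25.7 downward. On the log2 scale the change was -4.69 (SE 0.11, adjusted p = 4.02e-09). The other subunits were not called by edgeR. NELFA stood at 52.9, 48.7 and 52.3 CPM in the controls and at 39.6 and 44.5 CPM in the NELFB libraries (log2 fold change -0.29, adjusted p = 0.052). NELFE, at 50.5, 49.4 and 48.1 CPM in the controls, was at 61.2 and 56.9 CPM (0.26, adjusted p = 0.0819), and NELFCD changed by 0.10 on the log2 scale (adjusted p = 0.389). The NELFA and NELFE values of the groups did not overlap, in opposite directions, but neither passed the threshold in edgeR, and the median of the 4 subunits was -0.09. DESeq2, edgeR with the size factors of DESeq2, edgeR with the replicate number as a block and the fit without NELFE replicate 3 each called NELFA lower, and the last 2 of these also called NELFE higher.

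ADAM22, the target of the control guide RNA, was at 13.7, 12.9 and 11.3 CPM in the controls and at 35.6 and 41.1 CPM in the NELFB libraries (log2 fold change 1.60, SE 0.17, adjusted p = 3.87e-04). No library without a guide RNA against ADAM22 or a NELF subunit was measured, so this gene has no untargeted reference. ADAM22 encodes a synaptic membrane protein without protease activity.

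Of 16852 genes with enough counts, 1793 were higher after the NELFB knockdown (10.6% of those tested) and 1497 were lower (8.88%), at an adjusted p under 0.05 by the quasi-likelihood test of edgeR. Together 3290 genes were called (19.5%). By estimated fold the increases were larger than the decreases. Their median was 1.80-fold against 1.43-fold downward, and 68.0% of the higher genes but 37.2% of the lower genes passed 1.5-fold. By more than 4-fold 227 genes rose but 33 fell. These values include 71 called genes, 62 higher and 9 lower, with at most 3 reads in every library of a group. Their folds are known only as bounds, some of them under 4-fold. The higher genes had a median control level of 9.01 CPM and the lower genes one of 53.9 CPM. Called genes had a median absolute log2 fold change of 1.76 in the lowest of 5 groups by control level and 0.431 in the highest. The sizes of increases and decreases were not compared at equal levels. In 3289 of the 3290 called genes the NELFB and control libraries did not overlap. Over all genes tested, both NELFB libraries lay above all controls in 27.0% and below them in 24.9%.

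These counts rest on few libraries. Without NELFB replicate 1 the fit called 380 genes higher and 223 lower, and without NELFB replicate 2 it called 769 and 491. Without control replicate 2 it called 1085 and 805, and without control replicate 1, the control that stood apart, 2218 and 2098. The fit without NELFE replicate 3, which stood apart in its group, called 2211 and 1937. In all 8 fits that left out 1 library, 340 genes stayed higher and 191 stayed lower.

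Where the log2 CPM averaged 1 or more, the 12 protein-coding genes that rose most included COL3A1, ANKRD1, TCIM, FOS, H4C8, HES5, CYP1B1, H2AC6, TAGLN, MYOF and H4C5. COL3A1, a fibrillar collagen, was at 0.200, 0.310 and 0.219 CPM in the controls and at 26.8 and 12.1 CPM in the NELFB libraries (log2 fold change 6.30, SE 0.57, adjusted p = 1.42e-04). FOS, a part of the transcription factor AP-1, rose from 4.04, 3.90 and 1.05 CPM to 99.1 and 124 CPM (5.20, SE 0.92, adjusted p = 0.0113). For both genes every NELFB library lay far above every control, and for COL3A1 NELFB replicate 1 was more than 2-fold above replicate 2. ANKRD1, a target of the coactivator YAP, varied among the controls from 0.160 to 4.16 CPM and stood at 117 and 60.2 CPM in the NELFB libraries (5.65, SE 1.42, adjusted p = 0.0402). This call was kept in 2 of the 8 fits that left out 1 library, although its log2 fold change stayed between 5.07 and 7.22. CYP1B1, a cytochrome of xenobiotic and steroid metabolism, rose from 0.160, 0.177 and 0.525 CPM to 8.21 and 3.89 CPM (4.38, adjusted p = 7.14e-04).

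The most abundant genes moved less. Among the called genes with the highest control levels, FLNA, an actin cross-linker, was at 1549, 1587 and 1840 CPM in the controls and at 3288 and 3173 CPM in the NELFB libraries (log2 fold change 0.96, SE 0.11, adjusted p = 5.32e-04). OGT, the enzyme that adds O-GlcNAc to proteins, rose by 0.53 and GPC3, a glypican of the cell surface, by 0.77. On the lower side HNRNPA1, an RNA-binding protein of splicing, was at 1529, 1519 and 1526 CPM in the controls and at 1212 and 1124 CPM (-0.38, SE 0.08, adjusted p = 0.00992), ENO1 (enolase) changed by -0.42 and HNRNPA2B1 by -0.34. RPL4 and RPS4X, components of the ribosome, were at -0.25 and -0.27, and their calls were kept in 2 of the 8 fits that left out 1 library.

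**Figure D1:**
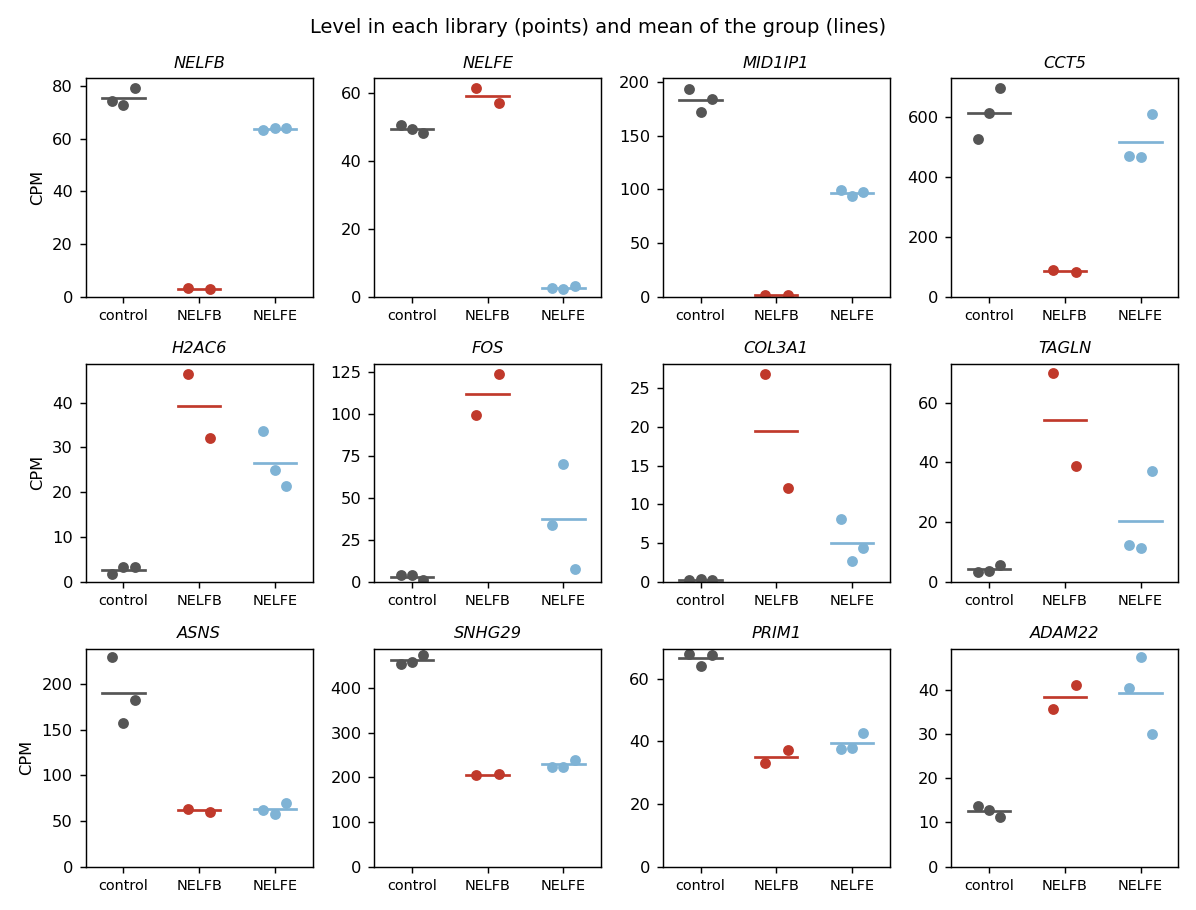
Level in CPM of 12 genes in each library (points) with the group mean (line) for 3 control, 2 NELFB and 3 NELFE libraries, each vertical axis starting at 0. NELFB, MID1IP1 and CCT5 are by far lowest in the NELFB libraries, with MID1IP1 also under the controls in the NELFE libraries, whereas H2AC6, FOS, ASNS, SNHG29, PRIM1 and ADAM22 lie apart from the controls in the NELFB libraries and on the same side in the NELFE libraries.

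The largest decreases formed a group of their own. The 12 largest among protein-coding genes were MID1IP1, HMX3, NELFB, ST8SIA2, MAPK6, C1orf159, TRIM13, FEM1C, XKR8, ARHGAP4, ZNF799 and PPFIA2. MID1IP1, which activates acetyl-CoA carboxylase in fatty acid synthesis, fell from 194, 173 and 185 CPM to 1.70 and 1.45 CPM (log2 fold change -6.86, SE 0.13, adjusted p = 7.26e-10). MAPK6, the atypical kinase ERK3, fell from 110, 131 and 140 CPM to 7.55 and 4.79 CPM (-4.36, SE 0.20). TRIM13, a ubiquitin ligase of the endoplasmic reticulum, fell from 33.8, 41.4 and 40.8 CPM to 2.16 and 1.75 CPM (-4.30, SE 0.16). These NELFB libraries lay far under both other groups, for the NELFE libraries held 96.3, 87.9 and 110 CPM of MAPK6 and 36.4, 35.2 and 33.7 CPM of TRIM13. FEM1C, a substrate receptor of a cullin ligase, fell by 3.82 on the log2 scale, PPFIA2 (liprin-α2, a synaptic scaffold) by 3.25 and ST8SIA2, a polysialyltransferase, by 4.67. All 12 also differed from the NELFE libraries in the test of that difference (adjusted p between 2.71e-09 for MID1IP1 and 0.0275 for ARHGAP4). PPM1E, a phosphatase named here after its values were seen, was the next in this order (a guide run of 4 bases), at 80.1, 80.2 and 79.0 CPM in the controls and 8.96 and 8.42 CPM in the NELFB libraries (-3.20, SE 0.09). SHISA8, likewise named after its values were seen and too low on average for this order, had 82, 44 and 33 reads in the controls and 0 in both NELFB libraries, at least 17.6-fold fewer with these libraries set to a floor of 3 reads each.

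Most of these genes carried a partial copy of the guide RNA near a transcript start. For each gene the longest run of guide bases next to an NGG PAM was sought on both strands within 500 bases of any annotated start. A run of at least 11 bases, GGAGGGCGCCG followed by the PAM, occurred in 43 of 16645 genes with an annotation (0.258%). Without NELFB, 26 of these 42 genes were lower (61.9%), 4 were higher and 12 were not called. The share called lower was 10.8% for runs of 9 or 10 bases, 9.97% for 7 or 8 and 8.60% for 6 or fewer, near the 8.88% of all genes. Of the 26 lower genes, 22 were also lower than in the NELFE libraries, a comparison with the same NELFB libraries, and 1 was called lower in the NELFE knockdown. Their sites lay between 9 and 425 bases from a start, 10 of them in introns, 9 in untranslated regions and 3 in coding sequence. Binding of the guide RNA was not measured, and its part in these decreases was not tested.

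Among the genes with a run of at least 11 bases, the length of the run did not order the response. HMX3, a homeobox factor with a run of 13 bases, fell from 4.41, 3.28 and 3.42 CPM to 0.166 and 0 CPM. YY1, a zinc finger factor with 14 bases, had 181 CPM in the controls and 172 CPM in the NELFB libraries on average (log2 fold change -0.07, adjusted p = 0.588), and WDR46, a nucleolar protein with 12 bases, was at -0.13 (adjusted p = 0.528). MACROD2, with 11 bases, was higher (2.73). Beside MID1IP1 itself the run was 5 bases, but the site found for its antisense transcript MID1IP1-AS1 lies inside the annotated MID1IP1 gene. MID1IP1-AS1 had 162, 133 and 152 reads in the controls and 3 and 1 in the NELFB libraries, at least 50.2-fold fewer against the floor of 3 reads a library. The counting ignored strand: reads over exons of both a gene and its antisense gene were not counted, and a read over an exon of one of them was assigned to it whichever strand it came from. The values of MID1IP1-AS1, and of PPFIA2-AS1 (-3.84) beside PPFIA2, are therefore uncertain. Some genes share 1 site, as TRIM13 does with DLEU2 (-0.82) and ZNF48 (-2.57) with SEPTIN1 (-0.75, not called). Of the 33 genes with an estimated fall of more than 4-fold, 15 had a run of at least 11 bases, 3 had 9 or 10 and 15 had fewer. Some of the 15 with fewer were at the floor in the NELFB libraries, with bounds as low as 3.46-fold.

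The CCT chaperonin folds actin and tubulin with 8 different subunits. CCT5 fell from 526, 610 and 696 CPM to 87.5 and 81.3 CPM (log2 fold change -2.86, SE 0.16, adjusted p = 4.65e-06), while none of the other 7 subunits was called by edgeR and their log2 fold changes ran from -0.45 for CCT6A to -0.15 for CCT3. The median of the 8 was -0.18, against -0.003 over all genes tested. DESeq2, edgeR with no filter on low counts, edgeR with the replicate number as a block and the fit without control replicate 1 also called CCT6A lower, 2 of the 8 subunits.

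Within 100 kb of the centre of the guide site, 14 other genes were tested, of which 3 were lower (21.4%, against 8.88% of all genes) and 1 was higher, so that 28.6% were called against 19.5% of all genes. TUBB4B, 14091 bases upstream and the most abundant of them, was at 420, 456 and 482 CPM in the controls and at 399 and 456 CPM in the NELFB libraries (log2 fold change -0.08, adjusted p = 0.655). TOR4A, which starts 22348 bases downstream, had 14, 11 and 15 reads in the controls and 1 and 0 in the NELFB libraries, at least 4.50-fold fewer against the floor of 3 reads, and it differed from the NELFE libraries (adjusted p = 0.0276). SSNA1 (-0.37), NDOR1 (-0.47) and RNF224 (2.07) were also called, and none of these 3 differed from the NELFE libraries by the test of that difference (adjusted p between 0.990 and 0.994). RNF224 rose from 0.240, 0.222 and 0.219 CPM to 0.747 and 1.20 CPM.

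In polyadenylated RNA the replication-dependent histone genes rose as a group. These genes supply the core and linker histones of S phase. Their mRNAs normally lack a poly(A) tail, so the values below cover polyadenylated forms, and total histone mRNA was not measured. Of 69 listed genes, 26 had enough counts, and 24 of these were higher (92.3%, against 10.6% of all genes) and none was lower, with a median log2 fold change of 2.39 against -0.003 over all genes. Only genes with reads in some group could pass the filter, and 16 of the 26 had less than 1 CPM in the controls. In sum the 26 genes reached 29.6, 38.8 and 39.9 CPM in the controls and 265 and 206 CPM in the NELFB libraries. H2AC6 was the clearest member, at 1.76, 3.19 and 3.20 CPM in the controls and 46.5 and 32.2 CPM in the NELFB libraries (3.86, SE 0.27, adjusted p = 2.21e-05). H4C8 rose from 0.360, 1.11 and 1.23 CPM to 23 and 17 CPM (4.49), and H4C5 from 0.360, 0.310 and 0.438 CPM to 4.65 and 4.87 CPM (3.67). For each of these genes the lowest NELFB library was several-fold above the highest control. H2BC9 had 0, 0 and 1 reads in the controls and 27 and 20 after the knockdown, which is at least 7.70-fold more. H2BC17 (1.33) and H4C4 (0.74) were not called. With the 2 members at the floor set to their bounds the median was 2.32. DESeq2 gave a median of 2.38 over the same 26 genes and of 1.58 over all 50 listed genes with reads. Of these 50, 24 were again higher, and 24 had no adjusted p and could not be called. The number of higher members ranged from 17 to 24 when 1 library was left out. Several histone genes are nearly identical, and reads that fit more than 1 place were not counted, so the values of single members are uncertain.

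Of 10 replication-independent histones tested, 1 was higher (10%, against 10.6% of all genes) and 2 were lower (20%, against 8.88%), with a median of 0.03. When 1 library was left out, the number of higher genes ranged from 0 to 2 and that of lower genes from 1 to 3. H2AZ1, which encodes the variant H2A.Z, was at 511, 677 and 746 CPM in the controls and at 363 and 354 CPM in the NELFB libraries (-0.85, SE 0.17, adjusted p = 0.00841). H2AX, the variant that marks DNA breaks when phosphorylated, was lower by -0.62 and H3-3B, a gene of H3.3, was higher by 0.34. H2BC20P, annotated as a histone pseudogene, was among the largest non-coding increases, with 11.7, 13.2 and 12.6 CPM in the controls and 63.6 and 56.4 CPM in the NELFB libraries (2.26).

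Increases were frequent among immediate early genes. Of 36 tested, 20 were higher (55.6%, against 10.6% of all genes) and 1 was lower, with a median log2 fold change of 0.94. Beside FOS, the factors FOSB (1.98), FOSL2 (2.33), JUN (1.37), JUNB (1.07) and EGR3 (2.43) were higher. ZFP36L1, which marks AU-rich mRNAs for decay, was at 33.6, 27.6 and 29.2 CPM in the controls and at 86.8 and 92.4 CPM in the NELFB libraries (1.57, SE 0.10, adjusted p = 1.44e-05), and it was the member of this list with the smallest adjusted p. BTG2, an antiproliferative gene, rose from 53.3, 69.2 and 49.9 CPM to 151 and 175 CPM (1.5). KLF6 was lower (-0.61). EGR1, named here after its values were seen, had one of the largest changes, 3.27, but varied from 9.37 to 60.1 CPM among the controls and was at 207 and 359 CPM in the NELFB libraries (SE 1.06, adjusted p = 0.0802). MYC (0.25) was not called. The count fell to 12 without NELFB replicate 1 and to 13 without NELFB replicate 2. The feedback genes of the ERK pathway were mixed. Of 14 tested, 4 were higher (28.6%, against 10.6% of all genes), with ETV5 (1.74), SPRED3 (1.69) and PHLDA1 (1.18). The 2 lower genes (14.3%, against 8.88% of all genes) were the phosphatase DUSP7 (-0.50) and SPRED2 (-0.53), and the median was 0.27. Without NELFB replicate 1, 1 of these feedback genes was called higher and 0 lower, and without NELFB replicate 2 the counts were 2 and 0.

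Several targets of YAP and TEAD were higher. Of 21 tested, 11 were higher (52.4%, against 10.6% of all genes) and none was lower, with a median of 0.66. CCN2 is also on the list of immediate early genes, so the counts of these lists are not separate. CCN2 (CTGF), a matricellular protein and a common readout of YAP, went from 4.85, 5.14 and 5.95 CPM to 54.6 and 47.7 CPM (3.27, SE 0.29, adjusted p = 1.34e-04). CCN1 (CYR61) went from 90.1, 142 and 184 CPM to 529 and 474 CPM (1.85), and the kinase NUAK2 and the transmembrane protein CRIM1 rose by 1.45 and 1.36. All NELFB values of CCN1 and CCN2 were more than 2-fold above the highest control. Contractile and actin genes had 11 of 22 higher (50%), none lower and a median of 0.57. ACTA2, smooth muscle actin, was at 1.88, 2.17 and 1.40 CPM in the controls, at 14.5 and 12 CPM in the NELFB libraries and at 2.58, 3.70 and 3.68 CPM in the NELFE libraries. Its change against control was 2.86 (SE 0.22, adjusted p = 4.98e-05), and it was higher than in the NELFE libraries by 2.00 (adjusted p = 0.00129). TAGLN (transgelin), which binds actin, rose from 3.20, 3.50 and 5.56 CPM to 69.9 and 39.0 CPM (3.74). ACTN4 (0.67) and VCL (0.76), an actin cross-linker and a protein of adhesion sites, rose less, and the cytoplasmic actin genes ACTB (0.25) and ACTG1 (0.42) were not called. The YAP count fell to 4 without NELFB replicate 1 and to 7 without NELFB replicate 2 or control replicate 2, and the contractile count fell to 6 without any of these 3 libraries.

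Matrix genes moved with them in part. Of 20 fibroblast markers 12 were tested, and 5 were higher (41.7%, against 10.6% of all genes), none lower, with a median of 0.46. SPARC, a secreted glycoprotein of the matrix, rose from 138, 145 and 167 CPM to 656 and 477 CPM (1.92), COL5A2 (collagen V) by 1.32 and FBN1 (fibrillin 1) by 0.73. FN1 (-0.21), VIM (-0.02) and COL1A1 (0.06) were not called, and FAP, DCN and LUM had no reads in any library. In sum the 20 markers reached 945, 993 and 1027 CPM in the controls and 1689 and 1478 CPM in the NELFB libraries, and VIM was the most abundant of them in the controls. Of the 6 haematopoietic markers tested 1 was higher (16.7%, against 10.6% of all genes), and the median was 0.09. This marker was CD34, which rose from 3, 3 and 1 reads to 67 and 21 reads. In bulk RNA a change in the number of cells that express a gene and a change in RNA per cell cannot be told apart.

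Genes that answer to TGF-β and BMP had 8 of 14 higher (57.1%, against 10.6% of all genes) and 1 lower (median 0.59). ID2, an inhibitor of basic helix-loop-helix factors, rose from 15.2, 18.8 and 23 CPM to 52.5 and 51.8 CPM (1.46, SE 0.14, adjusted p = 2.27e-04). LTBP1, which stores latent TGF-β in the matrix, rose by 2.02 and BAMBI, a pseudoreceptor, by 1.58. Without NELFB replicate 1 this count fell to 2, and without NELFB replicate 2 to 4. TGFB3, a ligand, went the other way, from 4.85, 4.61 and 4.33 CPM to 1.99 and 1.67 CPM (-1.33), and it was lower than in the NELFE libraries, where it stood at 5.98, 5.46 and 7.30 CPM (adjusted p = 0.00233). In the Notch pathway 4 of 18 genes were higher (22.2%, against 10.6% of all genes) and 2 lower (11.1%, against 8.88%), with a median of 0.02. The number of higher genes ranged from 3 to 6 when 1 library was left out, and that of lower genes was 0 without either NELFB library or without control replicate 2 and 1 or 2 in the other fits. The ligand JAG1 rose from 40.2, 45.8 and 46.1 CPM to 96.5 and 93.0 CPM (1.11, SE 0.10, adjusted p = 1.50e-04), and the target genes HES5 (4.46), HES1 (1.59) and HEY1 (1.27) rose as well. The ligand JAG2 (-0.75) and MFNG (-0.32), a glycosyltransferase that modifies Notch, were lower. Clustered protocadherins, cell-surface proteins that give neurons their identity, had 28 of 53 members tested, of which 12 were higher (42.9%, against 10.6% of all genes) and none was lower (median 0.77). Of these 28, 15 had less than 1 CPM in the controls, and members without enough reads in any group were not tested, so the count and median do not describe all 53. PCDHB14 rose from 2.64, 3.24 and 3.06 CPM to 9.42 and 9.48 CPM (1.66) and PCDHGA10 from 7.37, 9.66 and 7.84 CPM to 20.7 and 19.7 CPM (1.28). Their count fell to 2 without NELFB replicate 1, to 7 without NELFB replicate 2 or control replicate 3 and to 6 without control replicate 2.

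**Figure D2:**
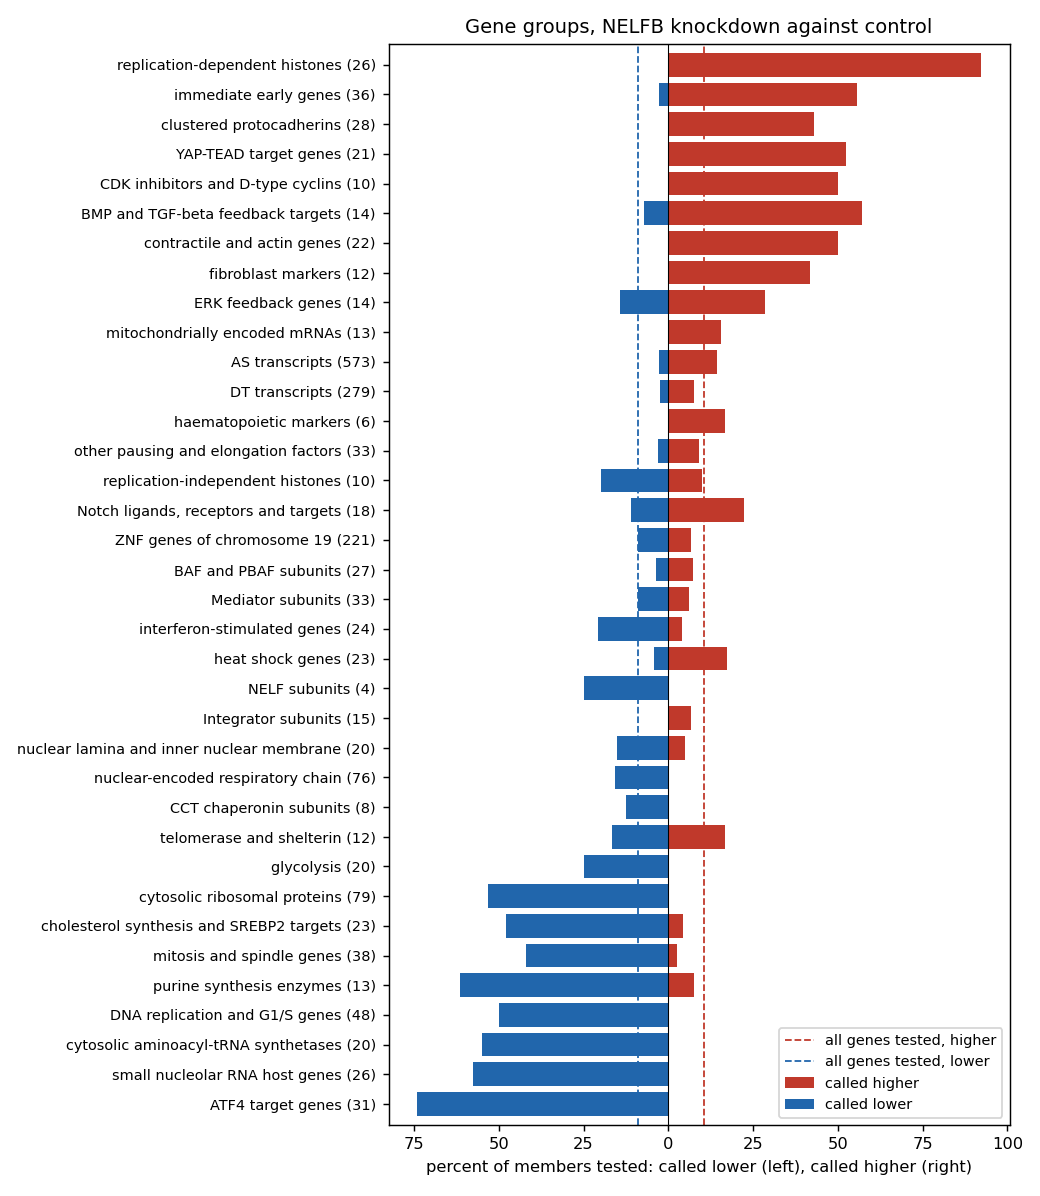
Percent of tested members called lower (blue, left) and higher (red, right) in each gene group, ordered by the median log2 fold change, with the number of members tested in parentheses and dashed lines for all genes tested (8.88% lower, 10.6% higher). The replication-dependent histones stand at the top with 92.3% higher and the ATF4 target genes at the bottom with 74.2% lower.

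Decreases were frequent among ATF4 targets and cytosolic aminoacyl-tRNA synthetases. ATF4 is the transcription factor that raises amino acid synthesis and import under stress, and of 31 targets tested 23 were lower (74.2%, against 8.88% of all genes) and none was higher, with a median log2 fold change of -0.65. ATF4 itself changed by -0.65. ASNS, asparagine synthetase, fell from 230, 157 and 183 CPM to 63.6 and 60.4 CPM (-1.61, SE 0.15, adjusted p = 1.73e-04). SLC7A11, the cystine transporter, fell from 113, 111 and 106 CPM to 35.9 and 40.6 CPM (-1.53, SE 0.10, adjusted p = 1.20e-05), and CHAC1, which degrades glutathione, from 8.21, 5.89 and 7.05 CPM to 1.66 and 1.58 CPM (-2.12). SLC7A5, a transporter of large neutral amino acids, changed by -0.84 and STC2 (stanniocalcin 2) by -0.99. None of the NELFB values of these 5 genes reached the lowest control. The count was 16 without NELFB replicate 1 and also without NELFB replicate 2. The cytosolic aminoacyl-tRNA synthetases, which charge tRNAs with amino acids, had 11 of 20 lower (55%) and none higher (median -0.48). AARS1 was at 335, 291 and 308 CPM in the controls and at 155 and 153 CPM in the NELFB libraries (-1.02), and VARS1, YARS1 and SARS1 changed by -0.81, -0.67 and -0.63. Without NELFB replicate 1 there were 6 lower synthetases, and without NELFB replicate 2 there were 7.

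Other biosynthetic lists had members that were lower and members that were not called. Of 13 purine synthesis enzymes 8 were lower (61.5%, against 8.88% of all genes) and 1 was higher (median -0.36). IMPDH2, which commits purines to GTP, fell from 386, 406 and 408 CPM to 207 and 206 CPM (-0.95, SE 0.08, adjusted p = 5.17e-05), PFAS and PAICS changed by -0.57 and -0.55, and ADSS1, the muscle form of adenylosuccinate synthase, was higher (1.29). In glycolysis 5 of 20 enzymes were lower (25%) and none was higher (median -0.26), with PFKP at -0.47 and GPI at -0.40. In cholesterol synthesis 11 of 23 genes were lower (47.8%), 1 was higher and 11 were not called (median -0.33). MSMO1 changed by -0.54, HSD17B7 by -0.78 and DHCR7 by -0.40, and SC5D, which acts late in the pathway, was higher (0.49). Of these 3 lists without NELFB replicate 1, 1 purine, 0 glycolysis and 1 cholesterol gene were lower, and without NELFB replicate 2 they numbered 2, 1 and 1. Without control replicate 2 they were 4, 3 and 7, and without control replicate 1 glycolysis had 11 lower. The cholesterol count was also 7 without control replicate 3 or NELFE replicate 2.

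Small decreases were called in many ribosomal protein genes. Of 79, 42 were lower (53.2%, against 8.88% of all genes) and none was higher (median -0.27), and in 71 of 79 both NELFB libraries lay under all controls, as they did in 24.9% of all genes. RPSA was at 717, 748 and 792 CPM in the controls and at 438 and 393 CPM in the NELFB libraries (-0.86, SE 0.09, adjusted p = 3.56e-04), and RPLP1 and RPL12 changed by -0.62 and -0.61. The count was 11 without NELFB replicate 1, 7 without NELFB replicate 2, 25 without control replicate 2 and 27 without control replicate 3. Small nucleolar RNA host genes, whose introns carry the guide RNAs of ribosomal RNA modification, had 15 of 26 lower (57.7%) and none higher (median -0.60). SNHG29 fell from 454, 459 and 475 CPM to 206 and 208 CPM (-1.16, SE 0.08, adjusted p = 1.49e-05). SNHG12 fell from 43.7, 50.1 and 57.3 CPM to 16 and 17.7 CPM (-1.58), and GAS5 and SNHG1 changed by -1.13 and -1.07. The number of lower host genes ranged from 10 to 18 when 1 library was left out.

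Many DNA replication genes were lower. Of 48 genes of replication and the G1/S transition, 24 were lower (50%, against 8.88% of all genes) and none was higher (median -0.47), and in 44 both NELFB libraries lay under all controls, as they did in 24.9% of all genes. PRIM1, the primase subunit, fell from 67.8, 64.0 and 67.5 CPM to 32.9 and 37.3 CPM (-0.92, SE 0.10, adjusted p = 3.41e-04), MCM2 of the replicative helicase changed by -0.69, the factor E2F2 by -1.01 and POLE2 by -1.06. The count depended on single libraries: it was 4 without NELFB replicate 1, 7 without NELFB replicate 2, 11 without control replicate 2 and 13 without control replicate 3. Of 38 genes of mitosis and the spindle 16 were lower (42.1%) and 1 was higher (median -0.33). HMMR, which binds the spindle, fell from 218, 218 and 212 CPM to 93.2 and 105 CPM (-1.13, SE 0.09, adjusted p = 4.89e-05), and CDC20 and AURKB changed by -0.92 and -0.71. This count was 2 without NELFB replicate 1, 8 without NELFB replicate 2 and 7 without control replicate 2. The CDK inhibitors and D-type cyclins had 5 of 10 higher (50%, against 10.6% of all genes) and none lower (median 0.61). CDKN2B (p15), an inhibitor of CDK4 and CDK6, rose from 2.84, 3.10 and 3.46 CPM to 16 and 11.9 CPM (2.15, SE 0.26, adjusted p = 6.62e-04), and CCND2 (cyclin D2) from 29.0, 30.6 and 30.3 CPM to 60.9 and 62.6 CPM (1.04). CDKN1A (p21) was at 32.7 and 93.9 CPM in the NELFB libraries and at 5.69 to 11 CPM in the controls (2.96, SE 0.66, adjusted p = 0.0209), so the NELFB libraries differed more from each other than the controls did. The call of CDKN1A was kept in 5 of the 8 fits that left out 1 library, with log2 fold changes from 2.01 to 3.52. Without either NELFB library, or without control replicate 3, 3 of these 10 genes were called higher.

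Of 12 telomerase and shelterin genes, 2 were lower and 2 were higher (16.7% each way, against 8.88% and 10.6% of all genes), with a median of -0.23. TERT, the catalytic subunit of telomerase, fell from 7.25, 4.56 and 5.52 CPM to 1.74 and 1.92 CPM (-1.66, SE 0.24, adjusted p = 0.00168), NHP2 changed by -0.34, and the shelterin genes TERF1 (0.33) and TERF2IP (0.29) were higher. TERF1 and TERF2IP kept their calls in 1 and 2 of the 8 fits that left out 1 library, and DESeq2 called 1 gene of the list higher and 4 lower. Over these 8 fits the number of higher genes ranged from 0 to 2 and that of lower genes from 1 to 5.

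Few mitochondrial genes were called. Of the 13 mRNAs of the mitochondrial genome 2 were higher (15.4%, against 10.6% of all genes) and none was lower (median 0.19). MT-CO2 was at 3073, 2742 and 2488 CPM in the controls and at 4243 and 4226 CPM in the NELFB libraries (0.61, SE 0.10, adjusted p = 0.00257), and MT-CYB changed by 0.43. Without control replicate 1, in which these mRNAs were highest among the controls, 8 were called higher. Of 76 nuclear genes of the respiratory chain 12 were lower (15.8%, against 8.88% of all genes) and none was higher (median -0.15), with CYC1 at -0.39 and NDUFB4 at -0.48. Without NELFB replicate 1 that count was 1, without NELFB replicate 2 it was 0, without control replicate 1 it was 21, without control replicate 2 or 3 it was 4, and without NELFE replicate 1 it was 7.

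In further groups fewer members were called, and several of their shares were near or under the 10.6% higher and 8.88% lower of all genes. Other pausing and elongation factors had 3 of 33 higher (9.09%) and 1 lower (3.03%), both under the shares of all genes, with a median of 0.03. The called members were CDC73 (0.37), a subunit of the PAF1 complex, MLLT3 (0.42) of the super elongation complex, HEXIM1 (0.36), which inhibits P-TEFb, and TRIM28 (-0.39). Of 15 Integrator subunits INTS3 was higher (0.36) and none was lower (median -0.10). Heat shock genes had 4 of 23 higher and 1 lower (median -0.09), with HSPA1A at 0.81 and HSPA1B at 0.74, a pair of nearly identical genes of which the reads that fit both were not counted. Of the heat shock genes 17.4% were higher, against 10.6% of all genes. Interferon-stimulated genes had 1 higher, STAT2 (0.73), and 5 of 24 lower (20.8%, against 8.88% of all genes), such as IFIT1 (-0.78), OAS3 (-0.77) and BST2 (-0.38), with a median of -0.07. Nuclear lamina and inner nuclear membrane genes had 3 of 20 lower (15%), LMNB1 (-0.44), LBR (-0.35) and LEMD2 (-0.29), and TMEM43 (0.52) higher, with a median of -0.12. Of 33 Mediator subunits 2 were higher (6.06%) and 3 lower (9.09%), under and about the shares of all genes (median -0.05), with CDK19 at 0.70, MED29 at 0.46 and MED22 at -0.41. Of 27 BAF and PBAF subunits 2 were higher (7.41%), ARID1B (0.37) and SMARCA2 (0.33), and 1 was lower (3.70%), DPF1 (-0.53), with a median of -0.02. ZNF genes of chromosome 19 had 15 of 221 higher (6.79%, against 10.6% of all genes) and 20 lower (9.05%, against 8.88%), with a median of 0.001. When either NELFB library was left out, each of these counts was 0 or 1, except for the ZNF genes, for which it was not computed. Without control replicate 1 the lower genes numbered 6 for heat shock, 5 for the lamina, 4 each for the elongation factors and the BAF subunits and 2 for Integrator. Without NELFE replicate 3, 7 lamina genes and 3 heat shock and 3 BAF genes were lower and 5 Mediator subunits were higher. Without control replicate 2 the heat shock genes had 2 higher and 0 lower, and without control replicate 3 they had 4 and 0.

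Among lncRNAs 10.1% were higher and 3.16% lower, against 11.2% and 10.5% of protein-coding genes and 10.6% and 8.88% of all genes. Their median control level was 0.935 CPM, and of the 2 lowest of 5 groups of genes by control level 1.01% and 3.98% were lower. Of 573 antisense transcripts 83 were higher (14.5%) and 16 lower (2.79%), with a median of 0.19, and of 279 divergent transcripts, which start from a promoter in the direction away from its gene, 21 were higher (7.53%) and 7 lower (2.51%), with a median of 0.12. As the counting ignored strand, reads of a gene and of its antisense transcript cannot be told apart, so all 573 antisense values are uncertain. Where the log2 CPM averaged 1 or more, the largest increases outside protein-coding genes were SSPOP, ESRG, H2BC20P, FAM86HP and ENPP7P11. SSPOP was at 1.12, 1.15 and 0.613 CPM in the controls and at 10.4 and 8.33 CPM in the NELFB libraries (3.27). ESRG, a transcript of pluripotent cells, varied from 1.12 to 5.82 CPM among the controls and was at 34.1 and 21.9 CPM in the NELFB libraries (3.25, adjusted p = 0.0245). The call of ESRG was kept in 5 of the 8 fits that left out 1 library, with log2 fold changes from 2.84 to 4.20. By the same limit on level the largest decreases were MID1IP1-AS1, PPFIA2-AS1, DGCR11, SNORD104 and SNHG12. DGCR11 fell from 4.53, 5.89 and 6.44 CPM to 1.41 and 1.15 CPM (-2.12), and DGCR2, with a guide run of 11 bases, changed by -1.24. SNORD104 fell from 4.61, 4.83 and 4.51 CPM to 1.04 and 1.54 CPM (-1.85), although reads of a small nucleolar RNA in a poly(A) library may come from its host transcript.

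The share of genes called in each direction differed with the level and the length of a gene. With genes in 5 equal groups by mean control CPM, the share called higher went from 13.7% in the lowest group to 12.9%, 11.4%, 8.93% and 6.26% in the highest, and the share called lower went from 1.01% to 3.98%, 9.56%, 13% and 16.9%. Counting changes of more than 1.5-fold alone, the shares higher were 13.7%, 12.3%, 5.88%, 2.76% and 1.54% and the shares lower were 1.01%, 3.77%, 4.21%, 3.77% and 3.77%, so above the lowest group the share lower no longer went up with level. The SE of the fold change had a median of 0.42 in the lowest group and 0.10 in the highest, so smaller changes passed the test at higher levels. With DESeq2 on the same genes and groups the shares called higher were 9.70%, 13%, 12.2%, 8.93% and 6.53%, so the lowest group no longer had the highest share. DESeq2 left 187 of the 3371 genes of that lowest group without an adjusted p, so these could not be called. It was run on 33854 genes, and in groups formed over all of them the lowest had 0.0443% higher and the highest 7.74%. Genes without an adjusted p counted there as not called. In the lowest group 1080 genes averaged fewer than 10 control reads, and of these 23.4% were higher, against 9.12% of the other 2291; a gene with so few control reads passed the filter on low counts more readily where its NELFB reads were many. By length on the chromosome, 16.8% of the longest group were higher and 6.70% lower, against between 8.56% and 9.58% higher in the other 4 groups. The median length of the longest group was 154900 bases. Single-exon coding genes had 17.9% higher, and 12.7% without the replication-dependent histones, against 11.1% of coding genes with several exons and 10.6% of all genes. The shares by level also depended on single libraries. Without control replicate 2 the lowest group by level had 8.18% higher and the highest had 9.34% lower. These values were 15.9% and 28.4% without control replicate 1. All of the shares above describe genes, which are not replicates, and no test was made of them.

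**Figure D3:**
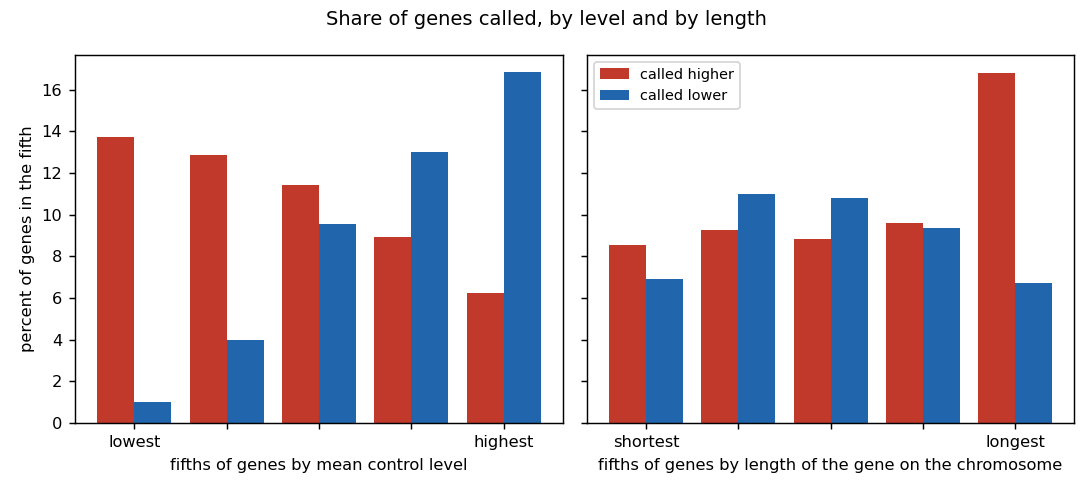
Percent of genes called higher (red) and lower (blue) in 5 equal groups by mean control level (left) and by length on the chromosome (right). By level the red bars fall from 13.7% to 6.26% and the blue bars rise from 1.01% to 16.9%, and by length the longest group has the tallest red bar, 16.8%.

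Few genes separated the NELFB from the NELFE knockdown. The test of the difference called 53 of 16852 genes (0.315%), of which 40 had less RNA with NELFB silenced. The other 13 had more. Of the genes named above with a guide run of fewer than 11 bases, those that differed beside NELFE were ZNF799 and TGFB3, each with a run of 10 bases, and MID1IP1, PPFIA2-AS1, PPM1E, SHISA8, TOR4A, DGCR11, ZFP36L1, ACTA2, JAG1 and H2BC9, with 8 bases or fewer. ZFP36L1 was higher in the NELFB libraries than in the NELFE libraries by 0.62 (adjusted p = 0.031), and JAG1 by 0.59 (adjusted p = 0.0476).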

How the data were processed

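The authors deposited counts of single-end reads per gene, not normalized, which STAR 2.5.4a assigned without strand to GENCODE release 24 on GRCh38 after quality control with FastQC 0.11.6. Reads that fit several places or genes were not counted. The sources call the NELF libraries independent biological replicates and say nothing of the kind for the controls, so p-values measure the spread between these libraries. Reads carry no molecular identifiers and are not independent molecules. Depth ranged from 22037423 to 24444185 counts.

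In R 4.3.3, edgeR 4.0.16 (filterByExpr, TMM, robust quasi-likelihood fit) was run on all 8 libraries as 3 groups, and p-values were adjusted by Benjamini and Hochberg over 16852 of 60725 genes. A gene was called at an adjusted p under 0.05. Symbols, starts and lengths came from GENCODE release 44, which matched 98.8% of the genes tested. The guide sequence came from the study's oligonucleotide list. A group in which every library has at most 3 reads is at the floor, and its fold is a bound computed with 3 reads in each of its libraries. Other fold changes use a prior count of 0.125.

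Genes named are the NELF subunits, ADAM22, the 12 largest increases and decreases among called protein-coding genes and 5 among others (average log2 CPM at least 1, groups not overlapping), the 5 most abundant called genes each way, up to 4 of each list by adjusted p, neighbours within 100 kb of the guide site and lower genes with a guide run of at least 11 bases. Some of these genes are not reported here, and further members of lists are given for context. The genes, the 33 lists and the tests were chosen with earlier results of these data known, so they are not independent evidence. Lists are described by counts and medians without a test. Alternatives were DESeq2 1.42.0, its size factors, no filter, at least 10 counts in every library, the 5 libraries alone, the replicate number as a block, a prior count of 2, a test against 1.5-fold, and each library left out.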

Additional observations from a re-analysis of the deposited data

Results flagged for a closer look

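For these results the response to the NELFB knockdown differed from the response to the NELFE knockdown in the test of that difference (quasi-likelihood test of edgeR, adjusted p under 0.05 over all genes). Values are log2 differences, NELFB libraries minus NELFE libraries.

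The targeted genes differed by -4.44 (NELFB) and 4.52 (NELFE). Among genes with a guide run of at least 11 bases, the differences were -4.87 for HMX3, -4.93 for ST8SIA2, -3.99 for MAPK6, -4.16 for C1orf159, -4.16 for TRIM13, -3.61 for FEM1C, -3.12 for XKR8, -3.11 for ARHGAP4 and -3.41 for PPFIA2. MID1IP1-AS1, with 3 and 1 reads in the NELFB libraries, is given as a bound against the floor of 3 reads a library, at least 34.8-fold lower (-5.12). In the same class they were -2.60 for CCT5, -2.81 for LIMD1, -2.35 for ZNF341, -2.51 for ZNF48, -1.92 for CSNK1G3, -1.62 for PGP, -1.81 for PHC1 and -1.54 for DGCR2. They were -2.04 for ERRFI1, -0.81 for MANF and -0.51 for METTL9.

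Genes with shorter runs also differed: MID1IP1 by -5.94, ZNF799 (10 bases) by -3.003, PPFIA2-AS1 by -3.72, DGCR11 by -1.67 and TGFB3 (10 bases) by -1.77. TOR4A, with 1 and 0 reads in the NELFB libraries, was at least 4.75-fold lower against the same floor (-2.25). Higher in the NELFB libraries were ACTA2 by 2.00, ZFP36L1 by 0.62 and JAG1 by 0.59. No group has 4 or more libraries, so no library was tested as an outlier within its group.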

How the results depend on the processing

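With 2 NELFB libraries, counts of calls depended on which library was left out. Over the 8 fits without 1 library, genes called higher ranged from 380 to 2218 and genes called lower from 223 to 2098, and those past 1.5-fold from 359 to 1475 and from 184 to 613. The lowest values came without NELFB replicate 1, where the remaining NELFB library is assumed to vary like the other groups. With the replicate block 2312 genes were lower and 2499 higher. Same-numbered libraries correlated in their deviations by -0.021 and -0.0127 between control and NELFB, by 0.275, 0.0542 and 0.451 between control and NELFE and by 0.103 and 0.199 between NELFE and NELFB. Not every pair was over 0.1, and no source says what a number marks, so the numbers were not taken as pairs. A direct test against 1.5-fold called 327 genes higher and 78 lower. DESeq2 gave 1699 and 1766, its size factors 1754 and 1567, no filter 2154 and 1969, at least 10 counts everywhere 1572 and 1382, and the 5 libraries alone 1759 and 1402. At an unadjusted p under 0.05, 5854 genes passed. Over all alternatives the 167 called genes covered by the naming rule kept their direction in 2487 of 2487 values and lost the call in 209. They were named because they were called in these same data, so the kept directions are not independent support. A missing adjusted p was not counted as a lost call. Among genes not called, STPG3-AS1 had -0.56 and ranged from -1.05 to 0.15 when 1 library was left out. Of 495 list medians under the alternatives, 462 stayed within 0.1 of the reported value. The reading of DESeq2 over the genes of the edgeR fit was chosen after seeing the data.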
